A study of Drosophila melanogaster with 23 samples.

Results

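The genes described here make up the cytoplasmic arm of the piRNA pathway in the Drosophila germline: aub, AGO3, vas, spn-E, krimp, qin, tej, tud, mael and zuc. They were chosen by name as known components of nuage, the granules around germ cell nuclei, and of piRNA processing, without reference to a cutoff on expression. Of the 10 genes, 9 matched a gene in the count tables, out of 17023 genes listed there. The reference used here pairs vas with its current FlyBase identifier only, which has no row in the tables. Counts that the tables may hold under an earlier identifier were not matched, so vas was not analysed here. Places below are in dm6.

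piRNAs are small RNAs that guide Argonaute proteins of the Piwi family to transposon transcripts. In the germline cytoplasm, Aub and AGO3 pass transposon and antisense fragments between them in the ping-pong cycle, each cut producing the guide for the next. Helicases and Tudor-domain proteins hold this cycle together in nuage, and a nuclease on mitochondria cuts precursors into further piRNAs. A separate nuclear arm transcribes and exports the precursors and silences transposons on chromatin.

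The measurements were read counts of polyadenylated RNA in 23 ovary libraries, from females dissected at an age of 1 to 5 days. They formed 11 groups of 2 libraries and 1 group, whole ovaries, of 1 library. In MSL3 RNAi, NC2b RNAi, Set2 RNAi and S19b RNAi, an RNAi transgene was expressed with UAS-Dcr2 under nosGAL4, a germline driver. The group bam RNAi;S19b carried bam RNAi with nosGAL4 and an S19b mutation, and its control bam RNAi carried bam RNAi with nosGAL4 alone. Without bam, germ cells stay as undifferentiated, stem-like cells. The hsbam controls combined bam RNAi with a heat-shock bam transgene and nosGAL4, so that a pulse of bam can start differentiation. Libraries hsbam 1 and 2 were the control of both MSL3 RNAi and NC2b RNAi, and hsbam 3 and 4 of Set2 RNAi. For S19b RNAi and its own hsbam control, total (T) and polysome (P) RNA came from gradients. Whole ovaries carried UAS-Dcr2 and nosGAL4 with no RNAi. An RNAi group compared with hsbam therefore also differed from it in UAS-Dcr2, in bam RNAi and in the bam transgene, and these cannot be told apart from the targeted gene. No label gives separate dissections for the 2 libraries of a group, and p-values then cover only the spread between libraries, which may be technical.

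Library depth ran from 2780781 to 39149303 counts. Of the targeted genes, NC2beta had a log2 fold change of -1.42 in NC2b RNAi and RpS19b one of -3.22 in bam RNAi;S19b, with adjusted p = 0.0383 and 0.0165. Tests are edgeR's quasi-likelihood tests throughout, adjusted after Benjamini and Hochberg. The fold change of RpS19b in S19b RNAi total RNA was -3.98 (unadjusted p = 0.0149, adjusted p = 1). Set2 had 62.2 and 54.3 CPM (a gene's count as a share of the library total, scaled to the same total for every library) in Set2 RNAi, against 265.8 and 37.2 CPM in hsbam 3 and 4, which gave -1.53 on the log2 scale (adjusted p = 0.415). The groups overlapped, and the lower level in Set2 RNAi rests on hsbam 3. The gene msl-3 went against its label, with a fold change of 0.65 (adjusted p = 0.142), so that group is called the libraries labelled MSL3 RNAi. NC2beta stood at 4.69 and 5.12 CPM in NC2b RNAi, against 12.2 and 16.0 CPM in hsbam 1 and 2. The libraries labelled MSL3 RNAi, where it was not targeted, held 6.9 and 7.8 CPM of it, and whole ovaries 6.25 CPM. A level below both of these controls was thus not particular to NC2b RNAi. RpS19b in S19b RNAi T came to 16.8 and 1.44 CPM, with 39.4 and 227.5 CPM for hsbam T. Some groups with no RNAi or mutation of RpS19b were also low. Its level was 4.90 CPM for whole ovaries, 2.78 and 5.26 CPM under Set2 RNAi, and 3.39 and 3.14 CPM under NC2b RNAi. Libraries labelled MSL3 RNAi showed 3.09 and 1.26 CPM. A fall of RpS19b from hsbam T therefore does not by itself show that its RNAi took effect. The level of bam was 4.61 CPM in hsbam 1, against 71.9, 172.9 and 77.0 CPM in hsbam 2, 3 and 4. It was 2.09 and 6.17 CPM in bam RNAi, so the level in hsbam 1 lay within that of bam RNAi. Whether the pulse of bam took effect in hsbam 1 was not tested. S19b RNAi held 4.07 and 39.1 CPM of bam in total RNA and 6.38 and 34.9 CPM in polysome RNA. Germline markers summed to at least 658 CPM in every library, and sums of markers are given beside the results they move with. Bulk libraries cannot tell fewer germ cells from less RNA per cell.

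On a scale that allows genes to be compared, CPM per kilobase of exon, 7 of the genes stood at similar levels and 2 lower. AGO3, the Argonaute that mostly carries sense piRNAs (chromosome 3L, 23554593 to 23689640), had a median over the 23 libraries of 63.6 CPM per kilobase. Krimp, a Tudor-domain protein that brings AGO3 to Aub (2R, 16238103 to 16240722), had 60.0. The medians of tud, spn-E, mael, aub and tej lay between 48.2 and 55.0 CPM per kilobase. The low genes were zuc, the mitochondrial nuclease (2L, 11988735 to 11989882), with a median of 16.7, and qin, a RING and Tudor-domain protein that keeps ping-pong between Aub and AGO3 (3R, 18591027 to 18650137), with a median of 13.5. One of these 2 genes was lowest in 22 of the 23 libraries, zuc in 10 and qin in 12, and aub was lowest in the remaining library. The span between libraries was 47.7-fold for qin, the widest of the 9, followed by 11.1-fold for aub. It was 4.46-fold for mael, the narrowest.

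**Figure D1:**
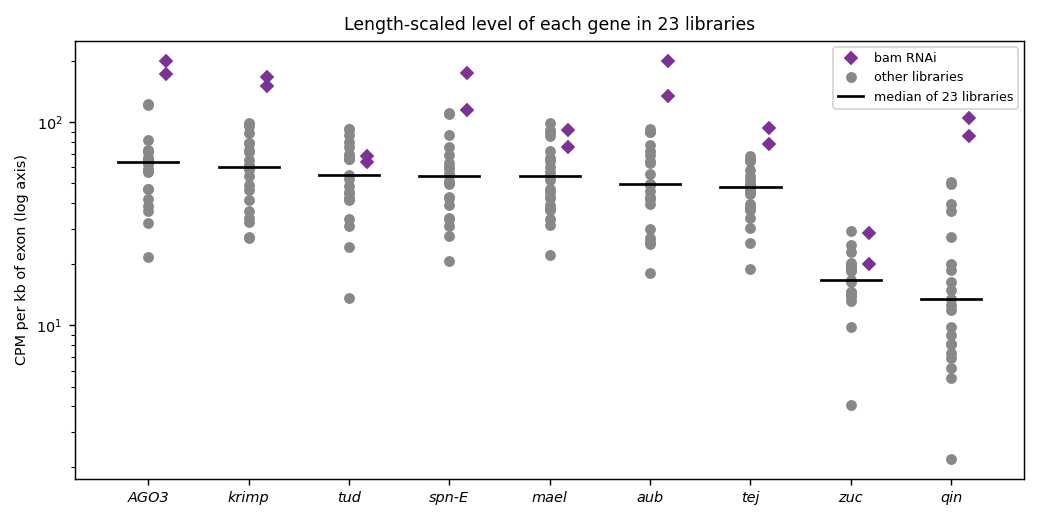
The level of each gene in CPM per kilobase of exon (log axis) in the 23 libraries, with bam RNAi as diamonds, the other libraries as grey points and the median of all 23 as a line. The medians of 7 genes lie between 48.2 and 63.6, and those of zuc and qin at 16.7 and 13.5, with qin spread over the widest range.

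Exon overlaps bear on which reads a count can hold, since the strand setting of the counting is not given in the sources used here. The exons of mael overlap CG14451 on the opposite strand by 246 bases, which is 11.4% of its exon length, and those of zuc overlap CG34163 by 67 bases (5.84%). The overlap of aub with TTLL4A is 79 bases (2.62%). The exons of qin share 21 bases with CG14304 and 17 with CG31224, a small part of its 6098 exon bases. AGO3, spn-E, krimp, tej and tud overlap no other gene's exons.

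Ovaries with bam RNAi alone held the highest group mean for 7 of the 9 genes: aub, AGO3, spn-E, krimp, qin, tej and zuc. Over the 6992 genes with a mean of at least 10 CPM, bam RNAi was highest for 14.7%. For 6 of the 7, all but zuc, both bam RNAi libraries lay above every library of the group next in order, which held for 5.72% of genes. The mean of zuc was 27.8 CPM in both bam RNAi and Set2 RNAi. The other 2 genes had another order. Tud, the multi-Tudor protein that binds methylated Aub and builds polar granules (2R, 21183322 to 21192913), was highest in the libraries labelled MSL3 RNAi. Mael, an HMG-box protein of nuage and nucleus (3L, 22721203 to 22726234), was highest in hsbam polysome RNA.

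**Figure D2:**
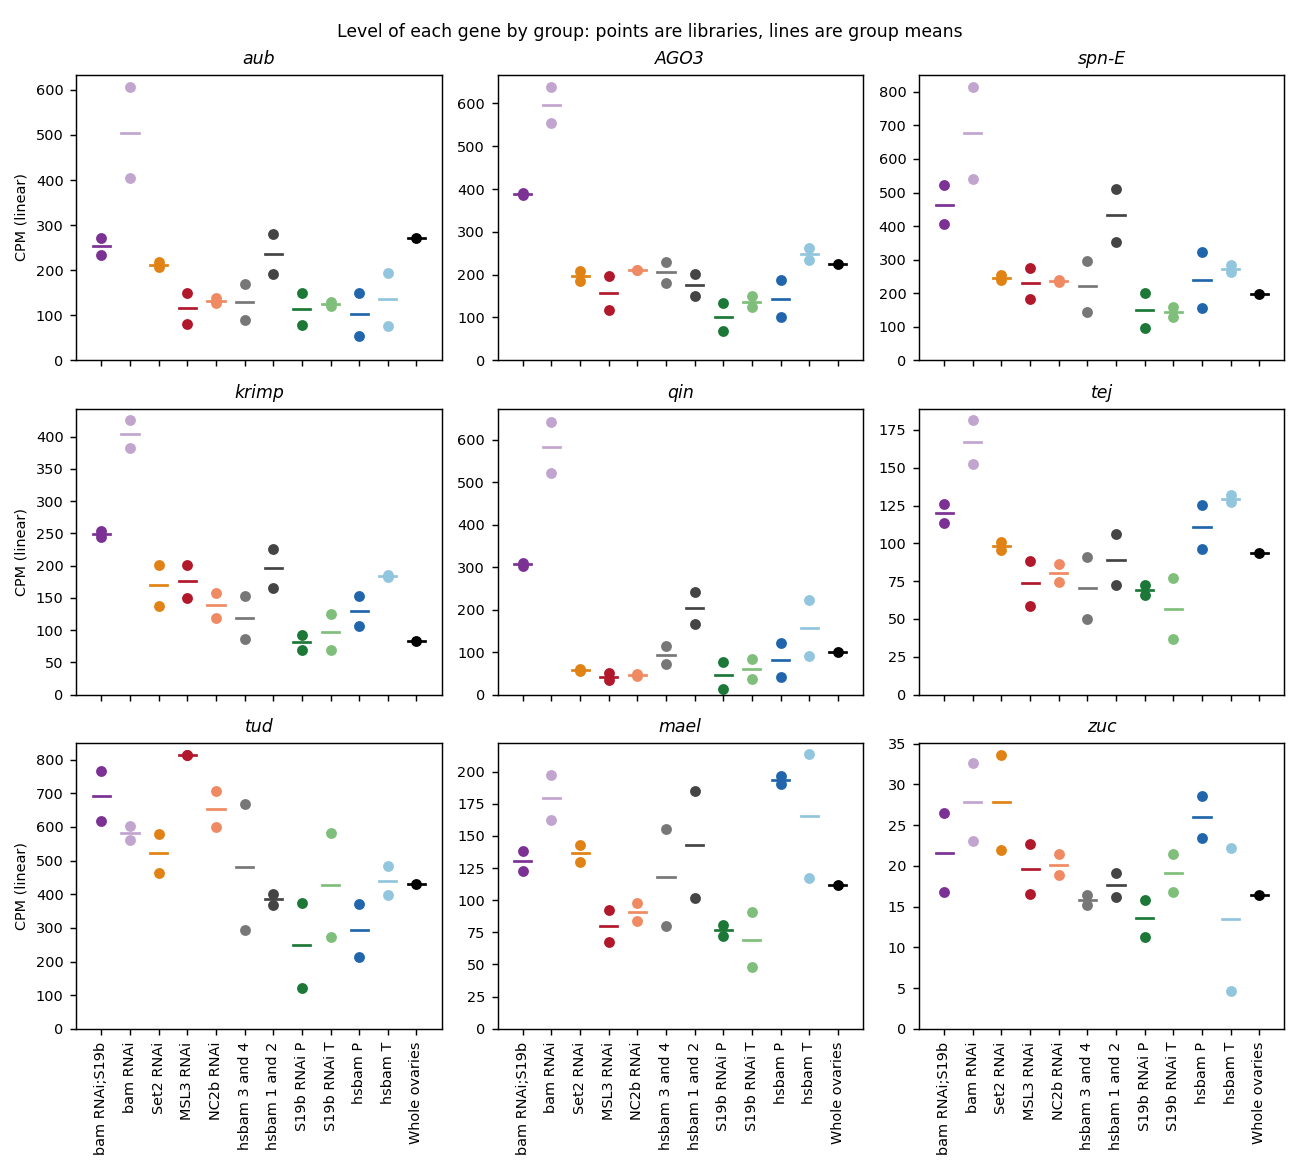
CPM of each gene (linear axis from 0) in every library, by group, with points for libraries and a line for the group mean. Both bam RNAi points stand above the other groups for aub, AGO3, spn-E, krimp, qin and tej, whereas tud is highest in the libraries labelled MSL3 RNAi, at a mean of 814.5 CPM.

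The Argonautes show the size of the difference. AGO3 had 553.4 and 639.0 CPM in bam RNAi, against 149.1, 202.5, 230.7 and 180.9 CPM in hsbam 1 to 4. Aub, the Argonaute that mostly carries antisense piRNAs and cuts transposon transcripts (2L, 10997819 to 11001476), had 404.2 and 606.6 CPM in bam RNAi and 190.9, 280.1, 168.2 and 90.5 CPM in hsbam 1 to 4. The groups did not overlap for either gene. Among their partners in nuage, qin had 521.8 and 641.0 CPM in bam RNAi, against 167.0, 242.3, 114.6 and 72.3 CPM in hsbam 1 to 4. Krimp had 382.8 and 425.4 CPM in bam RNAi and 165.4, 226.2, 152.3 and 86.1 CPM in hsbam 1 to 4. Both bam RNAi libraries were again above all 4 controls. Spn-E, the DExH helicase with a Tudor domain (3R, 15837419 to 15844415), stood at 540.9 and 815.8 CPM in bam RNAi, against 352.7, 511.5, 296.5 and 145.2 CPM in hsbam 1 to 4. Tej, a Tudor-domain partner of Vasa (2R, 14300103 to 14302353), stood at 152.5 and 181.7 CPM in bam RNAi, against 72.4, 105.9, 90.7 and 49.7 CPM in hsbam 1 to 4. For spn-E the lower bam RNAi library was close above hsbam 2, and for tej the groups were further apart. Mael did overlap, with 162.0 and 197.0 CPM in bam RNAi and 101.5, 184.5, 155.4 and 79.9 CPM in hsbam 1 to 4.

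Fold changes of bam RNAi over hsbam 1 to 4 were 1.82 for qin (SE 0.41), 1.46 for AGO3 (SE 0.31), 1.31 for aub (SE 0.40) and 1.21 for krimp (SE 0.35), all on the log2 scale. None of the 9 genes passed edgeR's test, where 0% of the 10088 genes tested passed, and the smallest adjusted p among the 9 was 0.124. Without adjustment 5 of the 9 were higher at p under 0.05, beside 5.67% of all genes higher and 19.6% in either direction. DESeq2 called 4 higher, beside 1.75% of all genes higher and 10.8% in either direction. All 9 fold changes were positive, with a median of 0.91 beside -0.11 over all genes tested. Groups did not overlap for 7 of the 9 genes, all but tud and mael, beside 20.8% of all genes higher without overlap. The sum of 12 germline markers was 2088 and 2341 CPM in bam RNAi, within the 658 to 3219 CPM seen over hsbam 1 to 4. Of 11 tested, 7 had positive and 4 negative fold changes, from -4.93 to 1.21. EdgeR called 0 of them, 2 had unadjusted p under 0.05 in its test, and DESeq2 called 1 lower. Heat-shock genes summed to 1367 and 1601 CPM in bam RNAi, against 975 and 1599 CPM in hsbam 1 and 2 and 18170 and 31040 CPM in hsbam 3 and 4. Muscle sheath markers summed to 3311 and 3365 CPM in bam RNAi, against 8026 to 32960 CPM over hsbam 1 to 4, and eggshell and follicle cell genes to 2823 and 2974 CPM in bam RNAi, against 5259 to 22410 CPM over hsbam 1 to 4. Among other piRNA genes edgeR called 0 of 18 cytoplasmic and 0 of 16 nuclear ones, with 6 and 1 at unadjusted p under 0.05 and 0 called by DESeq2 in either list. Their fold changes were mostly positive too, in 15 of the 18 and 14 of the 16, with medians of 0.41 and 0.39. The part of these genes in the result was not tested. The series does not name this comparison, and its groups come from different experiments, which cannot be told apart from the genotype.

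In bam RNAi;S19b, qin fell and 7 further genes had negative fold changes, while that of tud was positive. RpS19b, the gene mutated there, is a ribosomal protein paralog enriched in the germline. Qin fell to 302.5 and 309.7 CPM in bam RNAi;S19b, against 521.8 and 641.0 CPM in bam RNAi. The difference was -0.87 on the log2 scale (SE 0.20), with an adjusted p of 0.0473 in edgeR's test. Qin was the 1 of 9 genes that passed, in a comparison where 6.13% of all genes passed, 0.604% lower and 5.52% higher. Leaving out any 1 of the 4 libraries ended this call, with adjusted p between 0.0546 and 0.238, while the difference stayed between -0.97 and -0.81. DESeq2 called 4 of the 9 genes lower, beside 1.94% of all genes lower and 12.1% in either direction: qin (adjusted p = 0.000316), aub (0.0011), krimp (0.0129) and AGO3 (0.0312).

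Aub came next, with 233.9 and 271.6 CPM in bam RNAi;S19b, against 404.2 and 606.6 CPM in bam RNAi, a difference of -0.94 (SE 0.22; adjusted p = 0.0563). AGO3 had 387.2 and 390.9 CPM in bam RNAi;S19b and 553.4 and 639.0 CPM in bam RNAi, a difference of -0.56 (SE 0.19; adjusted p = 0.143). Krimp had 253.4 and 245.1 CPM in bam RNAi;S19b, against 382.8 and 425.4 CPM in bam RNAi, a difference of -0.64 (SE 0.19; adjusted p = 0.0962). In each case both mutant libraries lay below both controls. The same separation held for spn-E, tej and mael, with smaller differences. Spn-E had 406.0 and 521.1 CPM in bam RNAi;S19b, against 540.9 and 815.8 CPM in bam RNAi, a difference of -0.49 (95% interval -1.05 to 0.07). Tej had 113.6 and 126.1 CPM in bam RNAi;S19b, against 152.5 and 181.7 CPM in bam RNAi, a difference of -0.43 (95% interval -0.83 to -0.02; adjusted p = 0.202). For mael it was -0.40 (95% interval -0.84 to 0.05). In all, 7 of the 9 genes were lower without overlap, beside 28.3% of all genes. Tud had 616.8 and 767.2 CPM in bam RNAi;S19b, against 562.6 and 602.4 CPM in bam RNAi, and was the 1 gene higher without overlap (26.6% of all genes), at 0.30 (95% interval -0.18 to 0.77).

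The median difference of the 9 genes was -0.49, beside 0.00 over all genes tested. Of 18 other cytoplasmic piRNA genes 0 passed edgeR's test, 6 had unadjusted p under 0.05, DESeq2 called 2 lower, and the median was -0.34. Of 16 nuclear piRNA genes 0 passed edgeR's test, 2 had unadjusted p under 0.05, DESeq2 called 0, and the median was -0.22. Markers of other cells moved in the same comparison. All 9 muscle sheath markers rose in bam RNAi;S19b, to summed levels of 7642 and 13460 CPM, against 3311 and 3365 CPM in bam RNAi. The germline markers summed to 1442 and 1762 CPM in bam RNAi;S19b, against 2088 and 2341 CPM in bam RNAi, with 0 of 11 past the threshold of edgeR's test, 7 at unadjusted p under 0.05, and 1 higher and 3 lower by DESeq2. Escort and cap cell markers summed to 1950 and 1982 CPM in bam RNAi;S19b, against 1459 and 1359 CPM in bam RNAi, with 2 of 11 risen by edgeR's test and 4 by DESeq2. The list given this name here holds tj, Wnt4, Wnt2, ptc, hh, en, bab1, bab2, zfh1, eya, Fas3 and cas. It was not limited to genes particular to those cells. Of 12 eggshell and follicle cell genes tested 4 rose, to sums of 6069 and 12500 CPM in bam RNAi;S19b, against 2823 and 2974 CPM in bam RNAi, and of 10 heat-shock genes 4 fell. The part of these cells and genes in the result was not tested.

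In the libraries labelled MSL3 RNAi and in NC2b RNAi, qin fell and tud rose. Both comparisons use hsbam 1 and 2 as control, so a shift in that pair enters both. Qin fell to 33.6 and 49.6 CPM in both libraries labelled MSL3 RNAi, against 167.0 and 242.3 CPM in hsbam 1 and 2. That is a difference of -2.22 on the log2 scale (SE 0.27), or 4.66-fold lower, with adjusted p = 0.00979. In NC2b RNAi qin had 44.6 and 49.2 CPM, a difference of -2.02 from the same controls (SE 0.27; adjusted p = 0.0166). These were levels far below both controls, with no overlap.

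Tud rose to 814.3 and 814.7 CPM in both libraries labelled MSL3 RNAi, against 401.8 and 368.0 CPM in hsbam 1 and 2, a difference of 1.16 (SE 0.19; adjusted p = 0.0127). Its levels in NC2b RNAi were 708.3 and 601.4 CPM, a difference of 0.86 from the same controls (SE 0.19; adjusted p = 0.0339). The libraries of both groups lay above both controls. Calls of 2 in 9 genes stand beside 25.3% of all genes called in the libraries labelled MSL3 RNAi and 18.6% in NC2b RNAi. By direction, 8.48% and 4.53% of genes fell and 16.8% and 14.1% rose.

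These calls rest on the control pair. With hsbam 3 and 4 as the control, qin differed by -1.25 in the libraries labelled MSL3 RNAi and by -1.04 in NC2b RNAi, with adjusted p = 0.156 and 0.190, and no gene of the 9 passed. Tud then differed by 0.67 in the libraries labelled MSL3 RNAi (adjusted p = 0.416). With the designed control, the fall of qin in the libraries labelled MSL3 RNAi passed with any 1 library left out, at -2.50 to -1.92. In NC2b RNAi it no longer passed without NC2b RNAi 1 (-1.92, adjusted p = 0.116) or 2 (-2.08, adjusted p = 0.119). For tud in the libraries labelled MSL3 RNAi the fold change was 1.11 without hsbam 2, and 1.18 and 1.19 without NC2b RNAi 1 and 2, which share the fit. These are close to 1.16, and adjusted p was just past the threshold at 0.0508, 0.0530 and 0.0532. In NC2b RNAi the rise of tud no longer passed without hsbam 1, hsbam 2, NC2b RNAi 1 or NC2b RNAi 2, with fold changes of 0.97, 0.82, 0.78 and 1.00 and adjusted p = 0.0654, 0.0976, 0.245 and 0.182.

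The other genes had smaller differences. Aub stood at 81.1 and 150.3 CPM in those labelled MSL3 RNAi, 126.7 and 138.4 CPM in NC2b RNAi, and 190.9 and 280.1 CPM in hsbam 1 and 2. Its fold changes were -0.95 (SE 0.33; adjusted p = 0.0865) in the libraries labelled MSL3 RNAi and -0.73 (SE 0.33; adjusted p = 0.156) in NC2b RNAi. Spn-E stood at 183.2 and 274.9 CPM in those labelled MSL3 RNAi, 233.2 and 239.0 CPM in NC2b RNAi, and 352.7 and 511.5 CPM in hsbam 1 and 2, with fold changes of -0.84 (adjusted p = 0.0709) in the libraries labelled MSL3 RNAi and -0.77 (adjusted p = 0.0951) in NC2b RNAi. DESeq2 called the fall of spn-E in the libraries labelled MSL3 RNAi (adjusted p = 0.0429), where it called 13.6% of all genes lower and 33.1% in either direction. Mael stood at 67.1 and 92.7 CPM in those labelled MSL3 RNAi, 84.0 and 97.7 CPM in NC2b RNAi, and 101.5 and 184.5 CPM in hsbam 1 and 2. Aub, spn-E and mael were lower without overlap in both comparisons, as was krimp in NC2b RNAi. With qin this makes 4 of 9 genes in the libraries labelled MSL3 RNAi and 5 of 9 in NC2b RNAi, beside 34.3% and 40.6% of all genes. Higher without overlap were tud in the libraries labelled MSL3 RNAi, 1 of 9 genes beside 29.3% of all, and tud and AGO3 in NC2b RNAi, 2 of 9 beside 31.9%. AGO3 was at -0.09 in the libraries labelled MSL3 RNAi (95% interval -0.79 to 0.61) and at 0.37 in NC2b RNAi (95% interval -0.33 to 1.07). The intervals of krimp, tej, mael and zuc also included 0 in both.

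**Figure D3:**
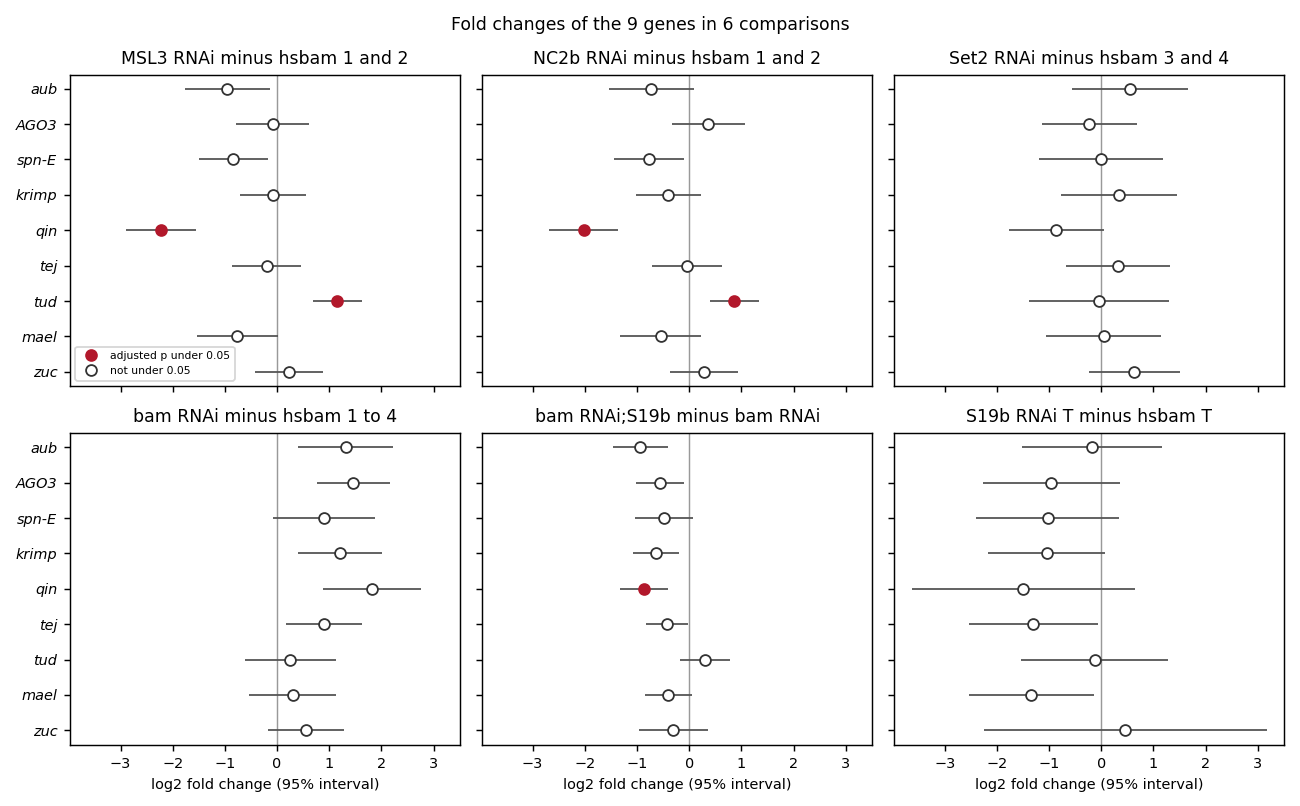
Log2 fold change of each gene with its 95% interval in 6 comparisons, each panel titled with the group on top minus its control, and filled points for adjusted p under 0.05 by edgeR's quasi-likelihood test. Qin and tud are filled in the libraries labelled MSL3 RNAi and in NC2b RNAi, and qin in bam RNAi;S19b; all 9 points are right of 0 in bam RNAi minus hsbam 1 to 4.

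Other genes of the pathway were called in both directions in these libraries. Among 18 other cytoplasmic piRNA genes, 2 rose and 3 fell in the libraries labelled MSL3 RNAi, a share near the 25.3% of all genes, with a median of 0.26 beside -0.20 for the 9 genes and -0.09 for all genes tested. Nxf3, kept in this list although it exports piRNA precursors, a step of the nuclear arm, rose there by 1.54 (adjusted p = 0.0152). Squ, a nuage protein, rose by 1.06 (adjusted p = 0.0244). Armi, a helicase of piRNA processing, fell by 1.07 (adjusted p = 0.0178), and fs(1)Yb, the organiser of Yb bodies in somatic cells of the ovary, fell by 3.20 (adjusted p = 0.0187). In NC2b RNAi 2 rose and 2 fell: squ rose by 1.84 (adjusted p = 0.0166), nxf3 rose by 1.37 (adjusted p = 0.0275), fs(1)Yb fell by 2.82 (adjusted p = 0.0332) and armi fell by 0.93 (adjusted p = 0.0342). These 4 of 18 are near the 18.6% of all genes, and the median was 0.35, beside -0.40 for the 9 genes. With hsbam 3 and 4 as the control, 0 genes were called in either comparison, so none of the calls in these lists held.

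Of 16 nuclear piRNA genes, 4 rose and 2 fell in the libraries labelled MSL3 RNAi, beside 25.3% of all genes called, and their median was 0.02. Del and cuff, partners in the complex that licenses piRNA cluster transcription, went opposite ways: del rose by 1.69 (adjusted p = 0.0102) and cuff fell by 1.86 (adjusted p = 0.0137). Su(var)2-10, a SUMO ligase, rose by 1.31 (adjusted p = 0.0109) and boot, which recruits Nxf3 to precursors, by 1.28 (adjusted p = 0.0193). In NC2b RNAi 5 rose and 1 fell, beside 18.6% of all genes called, with a median of 0.28, among them del at 1.78 (adjusted p = 0.0166), boot at 1.41 (adjusted p = 0.0223), Su(var)2-10 at 1.04 (adjusted p = 0.0246) and wde, a cofactor of histone methylation, at 0.91 (adjusted p = 0.0310).

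Cell type markers moved too. Germline markers summed to 3092 and 5064 CPM in both libraries labelled MSL3 RNAi and 4685 and 4727 CPM in NC2b RNAi, against 1128 and 1146 CPM in hsbam 1 and 2. Of 11 tested, 9 rose in the libraries labelled MSL3 RNAi and 10 in NC2b RNAi, while BicC was at 0 in NC2b RNAi and in hsbam 1 and 2. The same escort and cap cell list, named for somatic cells of the germarium, summed to 402 and 1185 CPM in both libraries labelled MSL3 RNAi. Its sums were 553 and 589 CPM in NC2b RNAi and 1523 and 1663 CPM in hsbam 1 and 2, and 4 of 12 fell in each comparison. Eggshell and follicle cell genes summed to 19020 and 26120 CPM in both libraries labelled MSL3 RNAi and 35030 and 41930 CPM in NC2b RNAi, against 13180 and 22410 CPM in hsbam 1 and 2, with 2 of 14 risen in each. Muscle sheath markers summed to 4657 and 13730 CPM in both libraries labelled MSL3 RNAi and 3946 and 4636 CPM in NC2b RNAi, against 8026 and 26560 CPM in hsbam 1 and 2. Of these 9 markers edgeR called 0 in either comparison, 0 and 5 had unadjusted p under 0.05, and DESeq2 called 0 in the libraries labelled MSL3 RNAi and 7 lower in NC2b RNAi. Heat-shock genes summed to 1785 and 2229 CPM in both libraries labelled MSL3 RNAi and 1823 and 2307 CPM in NC2b RNAi, against 975 and 1599 CPM in hsbam 1 and 2. Of 10 tested, 1 rose and 1 fell in the libraries labelled MSL3 RNAi, and 2 rose and 1 fell in NC2b RNAi. The part of these cells and genes in the results was not tested.

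Set2 RNAi, directed at an H3K36 methyltransferase, gave no call. Set2 RNAi libraries held 60.2 and 54.7 CPM of qin, against 114.6 and 72.3 CPM in hsbam 3 and 4, lower in both libraries, with a fold change of -0.86 (95% interval -1.77 to 0.04; adjusted p = 0.257). They held 22.0 and 33.6 CPM of zuc, against 15.2 and 16.5 CPM in hsbam 3 and 4, which gave 0.63 (95% interval -0.24 to 1.5). Aub stood at 207.8 and 217.2 CPM in Set2 RNAi, against 168.2 and 90.5 CPM in hsbam 3 and 4, which gave 0.55 (95% interval -0.55 to 1.66). Tej, aub and zuc were higher without overlap (39% of all genes) and qin was lower (25.5%). None of the 9 genes passed edgeR's test, as did 0% of 9313 genes, none of the 9 had unadjusted p under 0.05, and DESeq2 called 0 of the 9.

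Which hsbam library was used moved these values. Without hsbam 3, whose level of each of the 9 genes but zuc was above that of hsbam 4, 7 of the 9 genes passed edgeR's test, in a fit where 57.8% of all genes passed. Aub, at 1.04 (adjusted p = 0.000893), tej, at 0.79 (adjusted p = 0.00267), and spn-E, krimp, tud and mael were then higher in Set2 RNAi (31.1% of genes), and qin was lower at -0.52 (26.7% of genes; adjusted p = 0.0283). That control is 1 library, assumed to vary like the pair of Set2 RNAi libraries. In hsbam 4 the targeted gene Set2, at 37.2 CPM, was below both Set2 RNAi libraries. Without hsbam 4, 1 of the 9 passed, qin at -1.14 (adjusted p = 0.00141), beside 14.1% of all genes lower and 24.9% in either direction. Against hsbam 1 and 2, which had 36.6% of genes called, qin was at -1.89 (adjusted p = 0.0103) and spn-E at -0.87 (adjusted p = 0.0316), 2 of the 9 genes beside 18% of all genes lower. Qin alone had the same sign and passed with each of these 3 controls. With hsbam 1 to 4 as the control, 6.4% of all genes and 0 of the 9 passed, and qin was at -1.42 (adjusted p = 0.0984). Sums of markers did not overlap between Set2 RNAi and its designed control, though edgeR called 0 genes. Muscle sheath markers summed to 1436 and 1536 CPM in Set2 RNAi, against 16440 and 32960 CPM in hsbam 3 and 4, and heat-shock genes to 1744 and 1996 CPM in Set2 RNAi, against 18170 and 31040 CPM in hsbam 3 and 4. All 9 and all 10 tested were lower by DESeq2. Germline markers summed to 4814 and 4527 CPM in Set2 RNAi, against 3219 and 658 CPM in hsbam 3 and 4, with 0 of 11 called by DESeq2. Escort and cap cell markers summed to 480 and 493 CPM in Set2 RNAi, against 709 and 724 CPM in hsbam 3 and 4, with 7 of 11 lower by DESeq2. Eggshell and follicle cell genes summed to 23230 and 16090 CPM in Set2 RNAi, against 7461 and 5259 CPM in hsbam 3 and 4, with 6 of 14 higher by DESeq2. The part of these differences in the values was not tested.

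The control pairs share a genotype, and their values show how far the piRNA genes lay apart between them. Qin had 114.6 and 72.3 CPM in hsbam 3 and 4, against 167.0 and 242.3 CPM in hsbam 1 and 2, which gave -0.97 (95% interval -2.05 to 0.11). Spn-E had 296.5 and 145.2 CPM in hsbam 3 and 4 and 352.7 and 511.5 CPM in hsbam 1 and 2, which gave -0.82 (95% interval -2.05 to 0.41). Aub, spn-E, krimp and qin were all lower without overlap in hsbam 3 and 4, 4 of 9 beside 25% of all genes. None of the 9 genes passed edgeR's test, as did 0% of genes, none had unadjusted p under 0.05, and DESeq2 called 0 of the 9. Heat-shock genes summed to 18170 and 31040 CPM in hsbam 3 and 4, against 975 and 1599 CPM in hsbam 1 and 2. Escort and cap cell markers summed to 709 and 724 CPM in hsbam 3 and 4, against 1523 and 1663 CPM in hsbam 1 and 2. Eggshell and follicle cell genes summed to 7461 and 5259 CPM in hsbam 3 and 4, against 13180 and 22410 CPM in hsbam 1 and 2, with 3 of 14 at unadjusted p under 0.05 and 1 lower by DESeq2. The part of these differences was not tested.

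In total RNA of the gradient experiment, 8 of the 9 genes had negative fold changes in S19b RNAi, with wide intervals. Mael had 47.9 and 90.8 CPM in S19b RNAi T, against 213.8 and 117.0 CPM in hsbam T, a fold change of -1.34 (95% interval -2.54 to -0.15; unadjusted p = 0.0313, adjusted p = 1). Tej had 36.8 and 77.0 CPM in S19b RNAi T and 127.0 and 132.2 CPM in hsbam T, a fold change of -1.31 (95% interval -2.54 to -0.07; unadjusted p = 0.0403, adjusted p = 1). Krimp had 68.5 and 124.7 CPM in S19b RNAi T, against 185.5 and 182.7 CPM in hsbam T, a fold change of -1.04 (95% interval -2.17 to 0.08). Both S19b RNAi libraries lay below both controls for these 3 genes and for AGO3, spn-E and qin, 6 of 9 beside 13.7% of all genes, and none was higher without overlap (17.4%). The median of the 9 genes was -1.03, beside 0.04 over all genes tested. None passed edgeR's test, as did 0% of 9688 genes, 2 of the 9 had unadjusted p under 0.05, and DESeq2 called 0 of the 9. Of 18 other cytoplasmic piRNA genes 11 had negative fold changes, with a median of -0.30, and of 16 nuclear ones 10, with a median of -0.21.

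In polysome RNA, mael had 80.7 and 72.3 CPM in S19b RNAi P, against 196.6 and 190.6 CPM in hsbam P, a fold change of -1.59 (95% interval -2.79 to -0.38; unadjusted p = 0.0149, adjusted p = 0.989). Mael, krimp, tej and zuc were lower without overlap, 4 of 9 beside 9.82% of all genes, and none was higher without overlap (13.9%). Aub was at 0.06 (95% interval -1.29 to 1.40). None of the 9 passed edgeR's test, as did 0% of genes, 1 had unadjusted p under 0.05, and DESeq2 called 0 of the 9. The median of the 9 genes was -0.89, beside 0.12 over all genes tested. It was -0.28 for 18 other cytoplasmic piRNA genes and -0.30 for 16 nuclear ones. Heat-shock genes summed to 1677 and 1898 CPM in S19b RNAi T, against 15450 and 24840 CPM in hsbam T. In polysome RNA the sums were 1217 and 1767 CPM in S19b RNAi P, against 17470 and 42520 CPM in hsbam P. Eggshell and follicle cell genes summed to 4431 and 29950 CPM in S19b RNAi T, against 5145 and 4739 CPM in hsbam T, with positive fold changes for all 14, 5 at unadjusted p under 0.05, and 1 higher by DESeq2. They summed to 11480 and 44790 CPM in S19b RNAi P, against 6342 and 7606 CPM in hsbam P. Libraries of 1 group were also unlike each other. Muscle sheath markers summed to 24340 and 7643 CPM in S19b RNAi T, against 5136 and 20940 CPM in hsbam T. In polysome RNA they summed to 17920 and 7898 CPM in S19b RNAi P, against 5353 and 24420 CPM in hsbam P. Germline markers summed to 1829 and 3101 CPM in S19b RNAi T, against 3543 and 1282 CPM in hsbam T. Genes with a count numbered 8380 and 11786 in S19b RNAi T, against 11875 and 8937 in hsbam T. The part of these genes and differences was not tested.

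The polysome to total ratio of a gene compares its share of polysome RNA with its share of total RNA in libraries of the same number. Tud had ratios of 0.642 and 0.445 in S19b RNAi, and 0.938 and 0.442 in hsbam. Qin had ratios of 0.929 and 0.359 in S19b RNAi, and 0.461 and 0.548 in hsbam. These 2 of the 9 genes were below 1 in 4 of 4 pairs, beside 9.11% of the 6992 genes with a mean of at least 10 CPM. The ratio of zuc ran from 0.671 to 4.99, and the highest rests on 47 counts in hsbam T 2, at 4.68 CPM (95% Poisson interval 3.44 to 6.23, which covers counting error only).

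**Figure D4:**
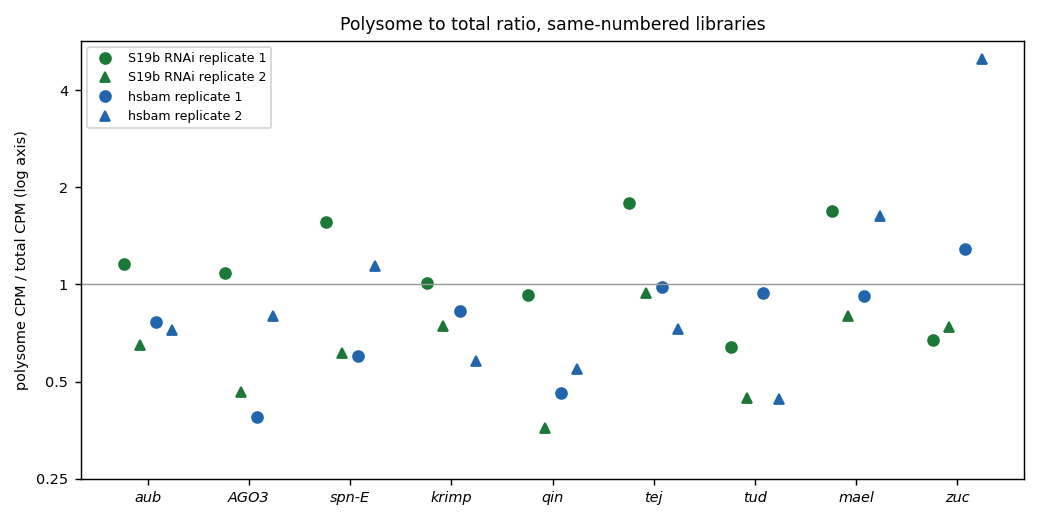
Ratio of polysome to total CPM (log axis) for each gene in the 4 pairs of same-numbered libraries, S19b RNAi in green left of hsbam in blue, with circles for replicate 1 and triangles for replicate 2. Qin and tud lie below 1 in all 4 pairs, and zuc in hsbam replicate 2 reaches 4.99.

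By edgeR's test none of the 9 genes differed between polysome and total RNA in S19b RNAi or in hsbam, or in the change of the ratio between the genotypes. In these tests 0% of genes passed, 0 of the 9 genes had unadjusted p under 0.05, and DESeq2 called 0 of the 9. For tud the fold change of polysome over total was -0.90 in S19b RNAi (95% interval -2.32 to 0.51) and -0.62 in hsbam (95% interval -2.03 to 0.79). On the log2 scale the ratio of qin differed between S19b RNAi and hsbam by 0.24 (95% interval -2.72 to 3.20), or 1.18-fold. In S19b RNAi 1 gene, zuc, was lower in polysome RNA without overlap (8.74% of all genes), and in hsbam 4 genes were lower (10%) and zuc higher (10.3%).

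Whole ovaries, the reference for developmental stage, gave 1 library and no test. Aub had 271.5 CPM there (95% Poisson interval 265.7 to 277.5), second to bam RNAi in the order of group means but within the libraries of bam RNAi;S19b (233.9 and 271.6 CPM) and of hsbam 1 and 2 (190.9 and 280.1 CPM). Qin had 99.5 CPM (96.0 to 103.1), below both hsbam 1 and 2 (167.0 and 242.3 CPM). That level was within hsbam 3 and 4 (114.6 and 72.3 CPM). It was above the libraries labelled MSL3 RNAi (33.6 and 49.6 CPM) and NC2b RNAi (44.6 and 49.2 CPM). Krimp, with 82.7 CPM (79.5 to 86.0), had rank 11 of 12 groups, and spn-E, with 198.1 CPM (193.1 to 203.2), rank 10. Neither rank is set apart from its neighbours: krimp lay between the libraries of S19b RNAi T (68.5 and 124.7 CPM) and of S19b RNAi P (69.2 and 92.8 CPM), and spn-E between those of hsbam 3 and 4 (296.5 and 145.2 CPM) and of S19b RNAi P (96.6 and 201.3 CPM).

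Over the 23 libraries the 9 genes varied together to an unequal degree. Pearson's r of log2 CPM had a median of 0.548 over the 36 pairs, against 0.0841 over all pairs of the 6992 genes. The highest was 0.876, between spn-E and qin, and the lowest -0.02, between tud and mael. Zuc had the lowest median with the other genes, 0.221, and tud the next, 0.376, while spn-E had the highest, 0.701. These values describe libraries that share groups and differ in depth. The genes most like the mean profile of the 9 were Iswi (r = 0.937), Cul4 (0.928), Kots (0.905) and SMC5 (0.904). The next was FBgn0262526 (0.888), an identifier that the reference used here pairs with no symbol. Whether it is an earlier identifier of a gene named here, vas included, was not determined. For single genes, qin was most like armi (0.956), tud most like kug (0.942), AGO3 most like Parp1 (0.919) and spn-E most like Iswi (0.910). The remaining nearest genes were Ack-like for krimp (0.900), CG13096 for aub (0.899), pn for zuc (0.854), CG43689 for tej (0.848) and Rrp1 for mael (0.808).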

How the data were processed

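Poly(A)-selected RNA from 23 ovary libraries was made into directional libraries, per the labels' protocols. Libraries marked total or polysome were loaded on gradients before RNA isolation. The authors deposited whole-number counts of reads for each gene. HISAT2 2.1.0, featureCounts 1.6.0.4, edgeR 3.16.5 and dm6 are named, per the submitters' processing notes, and the strand setting is not given in the sources used here. Each table listed 17023 FlyBase identifiers. Names, places and exon lengths came from Ensembl release 115 (BDGP 6.54, the dm6 coordinates). A further 8 small tables were not used here.

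The tests used R 4.3.3 and edgeR 4.0.16. Library sizes were scaled by TMM, low genes were removed with filterByExpr (at least 10 counts, and 15 in total), and p-values of the quasi-likelihood F test were adjusted after Benjamini and Hochberg across every gene in the fit, with 0.05 as the threshold. All 9 matched genes passed the filter in each of the 11 comparisons. Fold changes are log2, and SEs come from the F statistic. Intervals of 95% use the fitted degrees of freedom. CPM were scaled to library totals, and correlations took log2 CPM after adding a prior count of 2. DESeq2 1.42.0, its size factors, no filter, a replicate block, other controls and leaving out each library were the alternatives.

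The genes, gene lists and tests were chosen with earlier results of these data known. Named are the matched genes, the targeted genes, up to 4 genes per piRNA list and comparison with the smallest p among those past the threshold, the 5 genes most correlated with the mean profile, and 1 per gene. Figures were drawn with matplotlib 3.10.9.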

Additional observations from a re-analysis of the deposited data

How the results depend on the processing

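With 2 libraries a group, the counts of calls depend strongly on single libraries, on the control pair and on the tool. Depth was lowest in hsbam P 2, at 2780781 counts. Leaving it out gave 0 genes in S19b RNAi P and in hsbam P over T, and leaving out hsbam P 1 gave 722 and 460. The cause of the changes below was not tested. Scaling by DESeq2 size factors moved no count of calls by over 1.5 times.

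With hsbam 3 and 4 as the control, 0 genes were called in the libraries labelled MSL3 RNAi and 0 in NC2b RNAi, and 0 of the 9 piRNA genes in either. With hsbam 1 to 4 as the control, 18 and 3 genes were called, and again 0 of the 9 in either. In Set2 RNAi, hsbam 1 and 2 as control gave 3463 genes and 2 of the 9, and hsbam 1 to 4 gave 637 genes and 0 of the 9. Fold changes reversed with hsbam 3 and 4 for krimp in the libraries labelled MSL3 RNAi (0.48) and, in NC2b RNAi, for AGO3 (-0.0026), spn-E (0.056), krimp (0.18) and tej (0.16). With hsbam 1 to 4 they reversed for krimp in the libraries labelled MSL3 RNAi (0.15), tej in NC2b RNAi (0.046) and tud in Set2 RNAi (0.20). With hsbam 1 and 2, those of aub (-0.20), AGO3 (0.10), krimp (-0.27), tud (0.38) and mael (-0.12) reversed in Set2 RNAi. None of these reversed values passed edgeR's test.

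Where edgeR called 0 genes, the numbers at unadjusted p under 0.05 were 1972 in Set2 RNAi, 170 in S19b RNAi T, 320 in S19b RNAi P, 5 in S19b RNAi P over T, 42 in hsbam P over T, 5 for the interaction, 595 between the hsbam pairs and 1980 in bam RNAi against hsbam 1 to 4. DESeq2 called 3342 genes in NC2b RNAi, 1352 in Set2 RNAi, 1165 in bam RNAi;S19b with 4 of the 9, 46 in S19b RNAi T, 112 in S19b RNAi P, 122 between the hsbam pairs, and 1086 in bam RNAi against hsbam 1 to 4 with 4 of the 9. Without a filter on low counts edgeR called 849 genes in Set2 RNAi, 1426 in bam RNAi;S19b with 2 of the 9, 43 in S19b RNAi T, 67 in S19b RNAi P, 1 for the difference in polysome to total ratio between genotypes, 1 between the hsbam pairs, and 620 in bam RNAi against hsbam 1 to 4 with 2 of the 9. Fold changes then reversed for tej in NC2b RNAi (0.016), spn-E in Set2 RNAi (0.025) and spn-E in hsbam P over T (0.034). That of spn-E in hsbam P over T was 0.063 with DESeq2 size factors and with DESeq2.

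Replicate numbers did not establish a pairing. Deviations of same-numbered libraries correlated across genes at -0.07 (hsbam with the libraries labelled MSL3 RNAi), 0.13 (hsbam with NC2b RNAi), 0.10 (the libraries labelled MSL3 RNAi with NC2b RNAi), 0.21 (bam RNAi;S19b with bam RNAi), 0.49 (S19b RNAi P with T) and 0.30 (hsbam P with T), and at -0.29 to -0.18 between S19b RNAi and hsbam. With the replicate number as a block, 1 of the 9 was called in NC2b RNAi, qin, lower, beside 1.95% of all genes lower and 12.4% in either direction, and tud missed the threshold there (adjusted p = 0.0511) at a fold change of 0.86. In bam RNAi;S19b the block gave 2150 genes (22.4%, 8.01% lower) and 6 of the 9, lower in each case: aub, AGO3, spn-E, krimp, qin and tej. A block within genotype gave 1 gene in S19b RNAi P over T and 8 in hsbam P over T, and reversed spn-E for the change of the ratio (0.12). A crossed block, added after seeing the data, gave 8 genes in S19b RNAi T and 15 in S19b RNAi P, with 0 of the 9 in each.

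Leaving out each library in turn, the genes called ranged from 975 to 2812 in the libraries labelled MSL3 RNAi (1 to 3 of the 9), 0 to 2857 in NC2b RNAi (0 to 2), 12 to 5661 in Set2 RNAi (0 to 7) and 1 to 1314 in bam RNAi;S19b (0 to 1). They ranged from 0 to 722 in S19b RNAi P, 0 to 460 in hsbam P over T, 0 to 47 between the hsbam pairs and 0 to 170 in bam RNAi against hsbam 1 to 4 (0 to 1 of the 9). Over these fits some fold changes changed sign. AGO3 (-0.48 to 0.25), krimp (-0.27 to 0.17) and tej (-0.49 to 0.11) did so in the libraries labelled MSL3 RNAi. Tej (-0.26 to 0.27) did so in NC2b RNAi. Spn-E (-0.41 to 0.57), tej (-0.030 to 0.79), tud (-0.49 to 0.64) and mael (-0.33 to 0.58) did so in Set2 RNAi. Aub (-0.67 to 0.56), tud (-0.84 to 0.36) and zuc (-0.24 to 1.86) did so in S19b RNAi T. Aub (-0.50 to 0.49), AGO3 (-1.45 to 0.077), spn-E (-1.69 to 0.00023), qin (-2.99 to 0.17) and tud (-1.44 to 0.19) did so in S19b RNAi P. Aub (-0.77 to 0.23), spn-E (-0.66 to 0.46), krimp (-0.67 to 0.10), qin (-2.27 to 0.29), tej (-0.20 to 0.76) and mael (-0.29 to 0.53) did so in S19b RNAi P over T. Aub (-0.94 to 0.29), spn-E (-1.06 to 0.62), qin (-2.19 to 0.11) and mael (-0.014 to 0.72) did so in hsbam P over T. Aub (-0.51 to 0.72), AGO3 (-0.45 to 1.03), spn-E (-0.64 to 1.02), krimp (-0.17 to 0.60), qin (-1.50 to 1.66), tej (-0.0042 to 0.96), tud (-1.32 to 0.42) and mael (-0.66 to 0.22) did so in the change of the ratio. Tej (-0.59 to 0.14), tud (-0.14 to 0.91), mael (-0.59 to 0.38) and zuc (-0.10 to 0.15) did so in hsbam 3 and 4 against 1 and 2.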
